A study of Mus musculus with 4 samples.

Results

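The genes described here are 9 genes whose products a natural killer (NK) cell or a T cell reads on the surface of another cell: the stress ligands MICA, MICB, ULBP1, ULBP2 and ULBP3, the adhesion ligand CD58, the light chain B2M, and the MHC class I heavy chains HLA-B and HLA-C. They were taken by symbol from a table of 23258 genes, and all 9 were found and passed the filter on low counts, which 16030 genes passed. The table comes from RNA sequencing of 4 libraries labelled as gastric tumour tissue from C57BL/6 animals aged 20 weeks after birth. The 2 wild-type libraries (WT) are labelled only as such. The 2 knockout libraries (Mst4 KO) are labelled as from mice with floxed Mst4 alleles and a Cre transgene (Mst4F/F UBCcre). The name of the transgene places Cre under the broadly active ubiquitin C promoter. Nothing states whether the WT mice carried either allele. Nor is it stated that each library is its own animal, so p-values cover only library-to-library spread and that spread may be technical.

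Class I molecules carry peptides from inside the cell to its surface, where CD8+ T cells inspect them and where inhibitory receptors of NK cells read their presence. Each consists of a heavy chain and the invariant light chain beta-2-microglobulin. The MIC and ULBP proteins are distant relatives of the heavy chains that stressed, infected or transformed cells display, and all of them bind the activating receptor NKG2D. CD58 binds CD2 on T and NK cells and strengthens their contact with a target.

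The labels and the table disagree on the species. All 23258 row identifiers carry 9606, the taxon number of human, and of the 9 symbols only ULBP1 and B2M are also symbols of mouse genes in the RefSeq annotation of GRCm38.p6. Genes are therefore named by their human symbols, WT and KO refer to labels only, and no coordinates or sequences are given because no human reference was used here.

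Library totals ranged from 18613533 to 30505281 counts, the largest being WT replicate 1, and 20154 to 21173 genes had a value above 0. WT replicate 1 stood apart from the other libraries: over 11960 genes whose mean reached 5 CPM (reads scaled to a common library total), log2 differences had an SD of 0.82 within WT and 0.23 within KO. Its genes induced by low oxygen were high, with NDRG1 at 3970.3 CPM against 166 to 198 CPM elsewhere. The targeted gene, STK26 (the human symbol of Mst4), had WT levels of 54.1 and 54.9 CPM and KO levels of 9.03 and 7.36 CPM. Its log2 fold change was -2.73 (SE 0.26), which did not pass in edgeR (adjusted p = 0.834) and passed in DESeq2 (adjusted p = 3.03e-11).

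Markers of gastric glands and of lymphocytes were mostly at or near 0. Of 11 gastric gland markers 9 stayed under 1 CPM in every library and TFF2 was at 0, the exceptions being PSCA and ATP4A. Of 14 markers of NK and T cells 11 stayed under 1 CPM, and CD2, the receptor of CD58, and the NK receptor genes NCR1 and NCR3 had 0 counts in all libraries. A count of 0 allows between 0.102 CPM (WT replicate 1) and 0.162 CPM (WT replicate 2) at most (3 counts, for counting error only). NCAM1 reached 1.64 CPM in WT replicate 1 and KLRD1 lay between 1.52 and 3.60 CPM. CD8A was uneven, with 11.5 and 64.6 CPM in the WT libraries and 87.8 and 0 CPM in the KO libraries. The summed level of these 14 genes was 19.2, 67.8, 92.2 and 3.98 CPM in the same order, most of it CD8A except in KO replicate 2. The leukocyte marker PTPRC did not exceed 0.492 CPM. The 8 leukocyte markers had summed WT levels of 43.3 and 23.8 CPM and summed KO levels of 17.8 and 21.0 CPM. Most of each leukocyte sum was CD68, at 13.0 to 34.1 CPM. Summed levels of the 7 fibroblast markers were 193 and 141 CPM for WT and 116 and 136 CPM for KO. Most of each sum was COL1A1, at 83.1 to 144 CPM, whereas COL1A2 and PDGFRA did not exceed 0.102 and 0.153 CPM. The 5 endothelial markers summed to 2.87 to 8.07 CPM. The 5 epithelial markers, chiefly KRT8 and KRT18, summed to 1055 CPM in WT replicate 1 and 1951 to 2763 CPM elsewhere, with the cadherin CDH1 at most at 0.511 CPM. The leukocyte, fibroblast and endothelial sums were highest in WT replicate 1. That library was also the highest for 6 of the 8 tested class I genes, against 40.6% of all genes tested. The part of these cell types in the class I values was not tested.

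MICA was the most abundant of the NKG2D ligands per length and varied least. Levels per length use the second deposited value, read as FPKM. MICA was at 39.2 and 42.4 FPKM in WT and at 44.8 and 47.0 FPKM in KO, and made up 56.5% to 69.6% of the summed FPKM of the 5 ligands. ULBP2 followed at 9.68 to 16.3 FPKM and MICB at 7.74 to 12.5 FPKM, and their ranges overlapped. ULBP3, at 1.68 to 3.61 FPKM, and ULBP1, at 0.85 to 3.79 FPKM, were the lowest and overlapped each other. The summed FPKM of the 5 member ligands was 69.4 and 70.5 in WT and 66.5 and 67.5 in KO, while its make-up differed: ULBP1 took 5.46% in WT replicate 1 and 1.28% to 1.72% elsewhere, and ULBP3 took 5.12% in WT replicate 2 and 2.49% to 2.90% elsewhere.

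B2M was the most abundant of the 9 genes per length, at 2693 and 1577 FPKM in WT and 1537 and 1345 FPKM in KO, and ranked 8 among all genes by its mean FPKM. The member heavy chains were far lower. HLA-C lay between 18.7 and 81.8 FPKM and HLA-B between 18.9 and 69.2 FPKM, ranges that overlapped. CD58 lay between 13.3 and 18.6 FPKM, below both heavy chains in each library. Reads of the class I heavy chains, and likewise those of MICA and MICB and of the ULBP and RAET1 genes, can be shared between near-identical copies, so the division of reads within each family is uncertain.

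**Figure D1:**
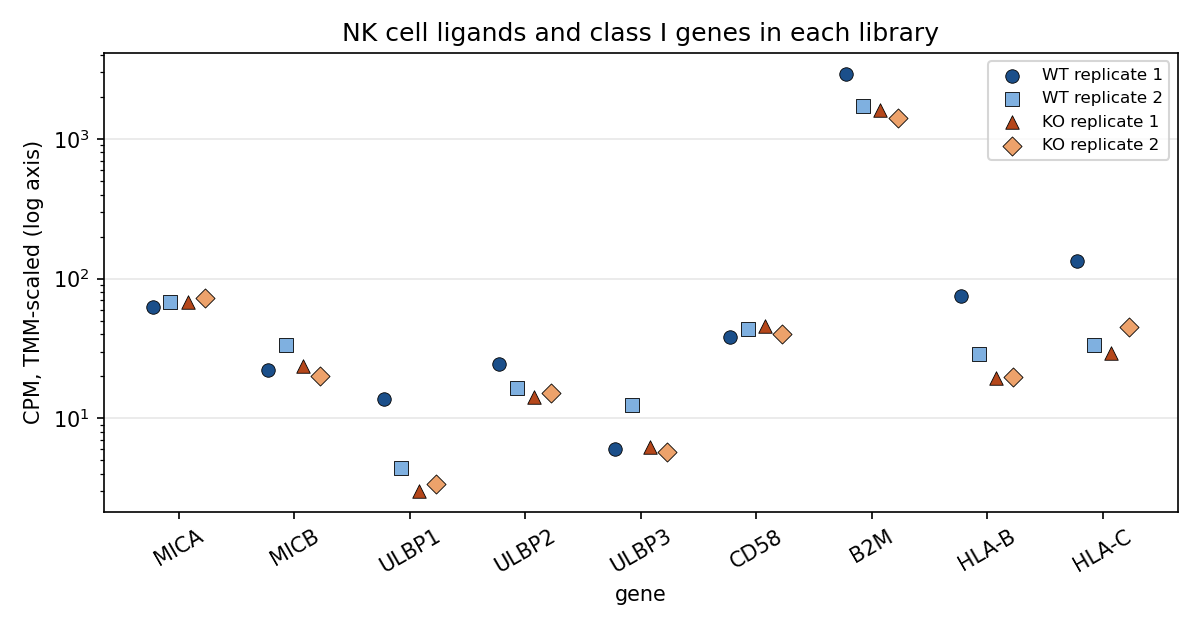
CPM of each of the 9 genes in each of the 4 libraries, on a log axis, with 1 point per library. WT replicate 1 is the highest point for ULBP1, ULBP2, B2M, HLA-B and HLA-C, WT replicate 2 for MICB and ULBP3, and the 4 points of MICA and of CD58 lie close together.

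The comparison of KO with WT asks whether these surface genes differ between the libraries labelled KO and those labelled WT. None of the 9 passed in edgeR with all 4 libraries (0 of 9, against 0.0% of 16030 genes tested). That fit called no gene, STK26 included, so 0 called here or in any list below does not set those genes apart. At unadjusted p under 0.05 there was 1 member, HLA-B, against 4.17% of all genes. DESeq2 also called 0 of 9, where it called 0.239% of 16319 genes, and at unadjusted p under 0.05 it had 2, HLA-B and ULBP1, against 4.50% of 22382 genes. In edgeR the log2 fold change was below 0 for 7 of 9 members, as it was for 8239 of 16030 genes tested. The median was -0.61 over the members, against -0.01 over all genes tested. In bulk libraries such as these, fewer cells of a type and less RNA per cell cannot be told apart.

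The genotypes did not overlap for 5 members. Both KO libraries lay below both WT libraries for HLA-B, B2M, ULBP1 and ULBP2 (4 of 9), as they did for 19.0% of all genes tested. Both lay above for MICA (1 of 9), against 18.4% of all genes. The genotypes overlapped for MICB, ULBP3, CD58 and HLA-C. WT replicate 1 was the highest library for 5 of 9 members, as for 40.6% of all genes, and WT replicate 2 for 2 of 9, as for 22.3%.

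Of the stress ligands, MICA differed least between genotypes. It had WT levels of 62.9 and 67.6 CPM (mean 65.3 ± 3.35, SD, n = 2) and KO levels of 68.6 and 73.1 CPM (70.8 ± 3.15, SD, n = 2). Both KO libraries were higher, but the gap between WT replicate 2 and KO replicate 1 was smaller than the SD within either genotype. KO over WT gave a log2 fold change of 0.12 (SE 0.22, edgeR adjusted p = 0.888), and it lay between 0.07 and 0.19 when each library was left out in turn.

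MICB, the closest relative of MICA, had WT levels of 22.2 and 33.5 CPM (27.9 ± 7.99, SD, n = 2) and KO levels of 23.9 and 20.0 CPM (21.9 ± 2.77, SD, n = 2). WT replicate 2 was the highest library and WT replicate 1 lay between the KO libraries. In edgeR the log2 fold change was -0.34 (SE 0.30, adjusted p = 0.834). The ratio of MICA to MICB per length was 4.69 and 3.39 in WT and 4.85 and 6.07 in KO.

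ULBP3 had the same order of libraries as MICB and a wider spread. It had WT levels of 6.03 and 12.5 CPM (9.24 ± 4.54, SD, n = 2) and KO levels of 6.20 and 5.73 CPM (5.97 ± 0.332, SD, n = 2). WT replicate 2 was 2.01 times the next highest library, and the remaining 3 lay close together. The fitted log2 fold change came to -0.63 (SE 0.45, edgeR adjusted p = 0.834).

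ULBP1 and ULBP2, which like ULBP3 hold to the membrane by a lipid anchor, were instead highest in WT replicate 1. ULBP1 had WT levels of 13.7 and 4.44 CPM (9.06 ± 6.54, SD, n = 2) and KO levels of 3.03 and 3.39 CPM (3.21 ± 0.253, SD, n = 2). Its counts were 403, 82.1, 58.0 and 65.0 in the same order, so WT replicate 1 rests on the most reads. That library was 3.09 times WT replicate 2, which in turn was 1.38 times the KO mean. The log2 fold change of ULBP1 was -1.50 (SE 0.61, edgeR adjusted p = 0.834).

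ULBP2 had WT levels of 24.5 and 16.4 CPM (20.4 ± 5.69, SD, n = 2) and KO levels of 14.2 and 15.1 CPM (14.7 ± 0.634, SD, n = 2). Its log2 fold change was -0.48 (SE 0.30, edgeR adjusted p = 0.834). The per-length ratio of ULBP2 to ULBP3 was 8.94 in WT replicate 1 and 2.99 in WT replicate 2, so the WT libraries lay on either side of the KO values of 5.02 and 6.04.

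The other 3 NKG2D ligand genes in the table, RAET1E, RAET1G and RAET1L, had both KO values below both WT values. RAET1E had WT levels of 21.9 and 21.1 CPM and KO levels of 14.1 and 15.8 CPM. RAET1G had WT levels of 20.6 and 11.4 CPM and KO levels of 8.76 and 8.14 CPM. RAET1L had WT levels of 2.90 and 2.77 CPM and KO levels of 1.72 and 2.12 CPM. For RAET1E and RAET1L the WT libraries lay near each other, whereas WT replicate 1 was 1.80 times WT replicate 2 for RAET1G. The log2 fold changes were -0.53 (SE 0.24) for RAET1E, -0.93 (SE 0.38) for RAET1G and -0.54 (SE 0.40) for RAET1L, none of which passed (edgeR adjusted p = 0.834 for each). Of all 8 ligand genes 7 had a log2 fold change below 0, against 8239 of 16030 genes tested. MICA was the exception, and the median over the 8 was -0.54. Without WT replicate 1, 7 of the 8 were lower in KO, and without WT replicate 2, 5 of the 8. Both KO values lay below both WT values for 5 of the 8, and for 19.0% of all genes tested. The summed FPKM of the 8 was 92.8 and 87.5 in WT and 78.8 and 80.2 in KO, a wider gap than for the 5 member ligands.

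**Figure D2:**
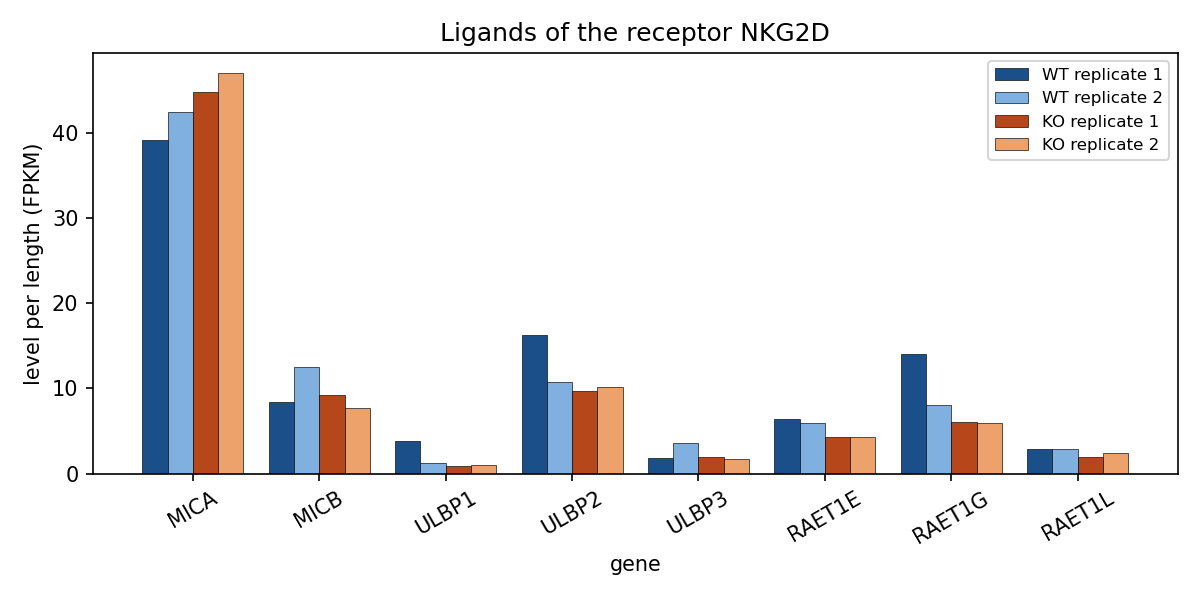
Level per length (FPKM) of the 8 NKG2D ligand genes, with 1 bar per library and no error bars. MICA (39.2 to 47.0 FPKM) exceeds every other ligand in each library, and the highest library is WT replicate 1 for ULBP1, ULBP2 and RAET1G and WT replicate 2 for MICB and ULBP3.

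CD58 did not separate the genotypes. It had WT levels of 38.3 and 43.6 CPM (40.9 ± 3.72, SD, n = 2) and KO levels of 45.6 and 39.9 CPM (42.8 ± 4.01, SD, n = 2). The lowest library was WT replicate 1 and the highest KO replicate 1, which differed 1.19-fold. KO over WT gave a log2 fold change of 0.06 (SE 0.24, edgeR adjusted p = 0.952). On the FPKM scale WT replicate 2 and KO replicate 1 (18.4 and 18.6) lay above WT replicate 1 and KO replicate 2 (13.3 and 14.7). The length implied by its count and FPKM accordingly ranged from 2330 bases in WT replicate 2 to 2788 bases in KO replicate 2, whereas that of MICA ranged from 1550 to 1593 bases.

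The light chain B2M was highest in WT replicate 1. It had WT levels of 2919.6 and 1714 CPM (2317 ± 853, SD, n = 2) and KO levels of 1618 and 1414 CPM (1516 ± 144, SD, n = 2). WT replicate 2 lay 1.13-fold above the KO mean, a gap smaller than that between the WT libraries. In edgeR the log2 fold change was -0.61 (SE 0.33, adjusted p = 0.834).

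HLA-B, a classical heavy chain, had WT levels of 75.1 and 29.0 CPM (52.0 ± 32.6, SD, n = 2) and KO levels of 19.5 and 19.8 CPM (19.6 ± 0.265, SD, n = 2). WT replicate 1 was 2.59 times WT replicate 2, and WT replicate 2 was 1.48 times the KO mean, beyond the spread of the KO libraries. The fitted log2 fold change came to -1.41 (SE 0.49, unadjusted p = 0.0337, edgeR adjusted p = 0.834), with the adjusted p in DESeq2 at 0.358.

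HLA-C had WT levels of 133 and 33.6 CPM (83.5 ± 70.6, SD, n = 2) and KO levels of 29.5 and 45.2 CPM (37.3 ± 11.1, SD, n = 2). WT replicate 1 was 2.95 times the next highest library, while WT replicate 2 lay between the KO libraries. KO over WT gave a log2 fold change of -1.16 (SE 0.68, edgeR adjusted p = 0.834). HLA-B and HLA-C differed in the KO libraries too: HLA-B was nearly equal in both, but HLA-C was higher in KO replicate 2, and the ratio of HLA-C to HLA-B per length was 0.97 in KO replicate 1 and 1.51 in KO replicate 2.

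The heavy chains HLA-E and HLA-F, outside the 9 genes, had the same high library. HLA-E, which presents leader peptides to the NK receptor CD94/NKG2A, had WT levels of 415 and 90.3 CPM and KO levels of 70.5 and 88.7 CPM (log2 fold change -1.67, SE 0.72). HLA-F had WT levels of 50.5 and 14.8 CPM and KO levels of 12.4 and 13.1 CPM. The ratio of B2M to the sum of HLA-B and HLA-C per length was 17.8 and 33.2 in the WT libraries and 40.5 and 28.3 in the KO libraries, so these heavy chains stood further above the other libraries than the light chain did in WT replicate 1.

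Among the 8 tested genes of the class I list, which holds B2M, HLA-B, HLA-C, HLA-E, HLA-F and the class I-like MR1, FCGRT and HFE, 0 were called and 6 were lower in KO (median log2 fold change -1.26). WT replicate 1 was over 2-fold above the highest other library for 5 of these 8 genes and for 3 of the 9 members (ULBP1, HLA-B and HLA-C), against 9.03% of all genes tested. HFE, a class I-like regulator of iron uptake, went the other way, with WT levels of 69.8 and 90.8 CPM and KO levels of 125 and 115 CPM (log2 fold change 0.58, SE 0.25, edgeR adjusted p = 0.834). MR1, which presents vitamin B metabolites, lay between 15.1 and 17.0 CPM.

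Because WT replicate 1 stood apart, each value was also computed without it. In edgeR on the other 3 libraries HLA-B, MICB and ULBP3 passed as lower in KO (3 of 9, against 3.93% of 16474 genes in that direction), and 0 passed as higher (2.54% of genes did). ULBP3 fell by 1.06 on the log2 scale (SE 0.23, adjusted p = 0.000223), MICB by 0.61 (SE 0.17, adjusted p = 0.0118) and HLA-B by 0.56 (SE 0.18, adjusted p = 0.0315). That fit has a lone WT library, which is assumed to vary like the KO libraries, although the spread within WT was the larger one. DESeq2 on the same 3 libraries called 0 of 9 (1.89% of 14594 genes were called lower), with adjusted p = 0.342 for ULBP3, 0.416 for MICB and 0.567 for HLA-B.

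The values of B2M, HLA-C, ULBP1 and ULBP2 came closer to 0 without WT replicate 1, and none of them passed. The log2 fold change was then -0.18 (SE 0.13) for B2M, 0.15 (SE 0.18) for HLA-C, -0.46 (SE 0.33) for ULBP1 and -0.16 (SE 0.19) for ULBP2. MICA was at 0.07 (SE 0.17) and CD58 at -0.03 (SE 0.17). The median over the 9 genes was -0.18 in that fit, against 0.01 over all genes.

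With WT replicate 1 as the lone WT library, a larger set was called. Without WT replicate 2, edgeR called B2M, HLA-B, HLA-C, ULBP1 and ULBP2 lower (5 of 9), but it called 26.1% of 16975 genes lower in that fit. ULBP1 fell by 2.06 (SE 0.24), HLA-B by 1.91 (SE 0.17) and HLA-C by 1.81 (SE 0.16), while MICB and ULBP3 were at 0.0066 (SE 0.18) and 0.0044 (SE 0.26). HLA-B, B2M, ULBP1 and ULBP2 had lower values in KO in both fits. The fits share both KO libraries and each has a lone WT library, so they are not independent.

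**Figure D3:**
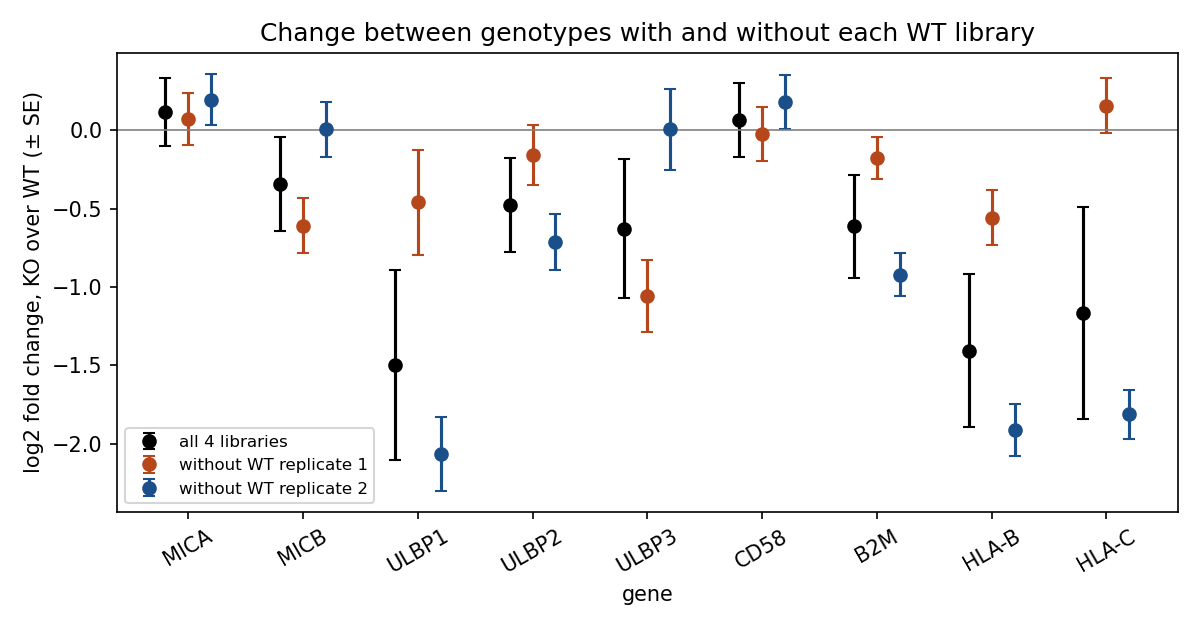
Log2 fold change of KO over WT for each of the 9 genes in edgeR, with bars of 1 SE, for all 4 libraries and without each WT library. HLA-C moves from -1.81 without WT replicate 2 to 0.15 without WT replicate 1, MICB and ULBP3 move the opposite way, and MICA and CD58 stay near 0.

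The machinery that loads class I molecules was compared with all 4 libraries, in the fit that called 0.0% of 16030 genes. Of 18 genes for peptide transport, trimming and loading, 0 were called in either direction, 11 were lower and 7 higher, and the median log2 fold change was -0.14. The peptide transporter subunit TAP1 had WT levels of 138 and 93.8 CPM and KO levels of 79.0 and 88.4 CPM (log2 fold change -0.47, SE 0.28), while its partner TAP2 had WT levels of 49.1 and 67.0 CPM and KO levels of 66.4 and 77.9 CPM. The immunoproteasome subunit PSMB9 had WT levels of 15.3 and 17.3 CPM and KO levels of 11.7 and 11.9 CPM, and PSMB10 had WT levels of 10.00 and 17.8 CPM and KO levels of 19.5 and 23.9 CPM. The peptidase LNPEP had a log2 fold change of -0.30 (SE 0.24). WT replicate 1 was over 2-fold above the other libraries for 0 of the 18, against 9.03% of all genes tested. With so low a share, 0 of 18 does not set these genes apart. Without WT replicate 1, CANX, a chaperone of new heavy chains, had a log2 fold change of -0.40 (SE 0.13), in a fit with a lone WT library.

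**Figure D4:**
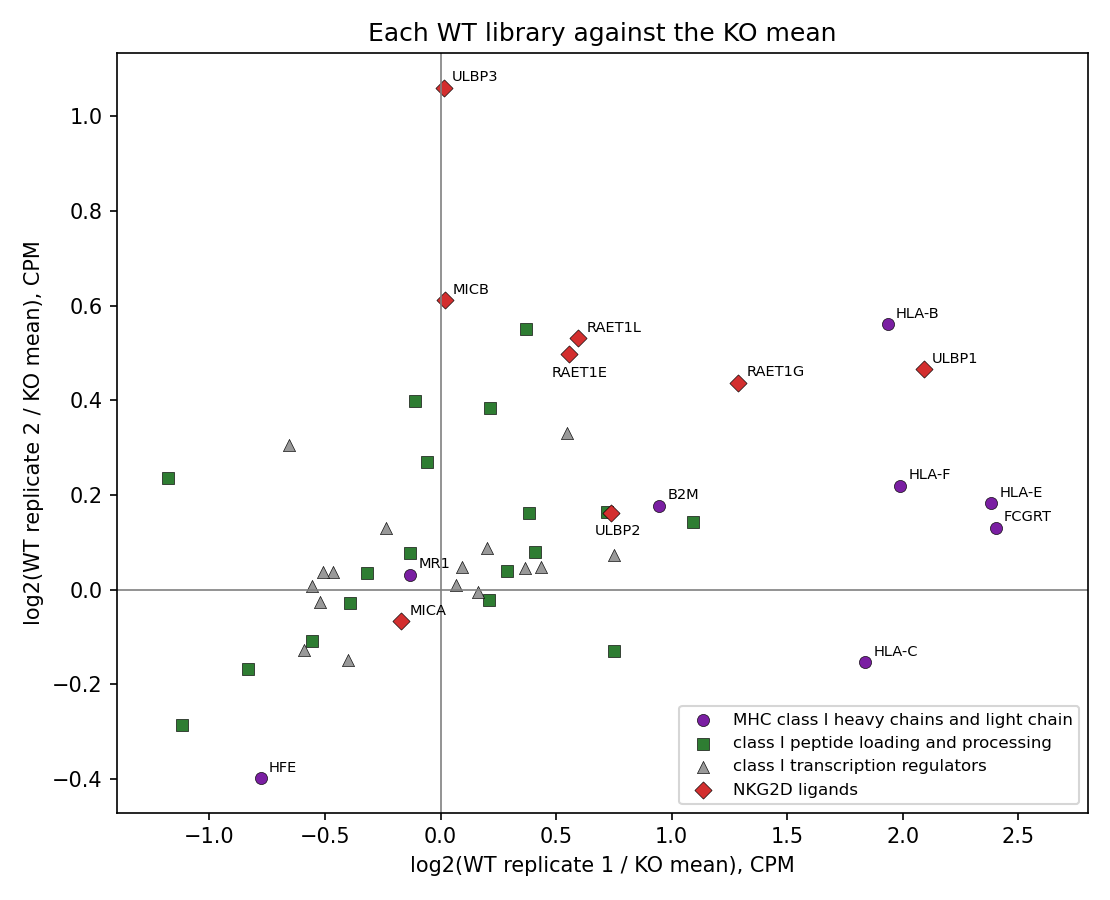
Log2 ratio of each WT library to the KO mean in CPM, WT replicate 1 on the horizontal and WT replicate 2 on the vertical axis, for tested genes of 4 lists, with 1 point per gene. HLA-B, HLA-C, HLA-E, HLA-F, FCGRT and ULBP1 lie far to the right, MICB and ULBP3 lie high on the line of equal WT replicate 1 and KO, and loading genes and regulators spread around 0.

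Regulators of class I transcription had a median log2 fold change near 0 in the same fit. Of 16 genes 0 were called, 8 were lower and 8 higher, and the median was 0.0006. WT replicate 1 was over 2-fold above the other libraries for 0 of the 16, against 9.03% of all genes tested. That share is too low for 0 of 16 to set the regulators apart. The transactivator NLRC5 had WT levels of 81.8 and 121 CPM and KO levels of 112 and 129 CPM. Its lowest library was WT replicate 1, and its part in the levels of HLA-B, HLA-C and B2M was not tested. STAT2 had WT levels of 42.1 and 36.2 CPM and KO levels of 29.0 and 28.6 CPM (log2 fold change -0.45, SE 0.23), and the NF-kB subunit RELA was at 178 CPM in WT replicate 1 and 99.9 to 112 CPM elsewhere. The Polycomb subunit SUZ12 and the factor IRF2 were higher by 0.34 (SE 0.26) and 0.27 (SE 0.24) on the log2 scale and did not pass. Of 9 interferon receptor and kinase genes 0 were called (7 lower, median -0.15). The feedback inhibitor SOCS3 was at 195 CPM in WT replicate 1 and 43.4 to 50.05 CPM elsewhere, JAK1 had a log2 fold change of -0.35 (SE 0.23), IFNAR2 of -0.22 (SE 0.25) and JAK2 of 0.17 (SE 0.33).

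Genes that control the stress ligands had log2 fold changes on both sides of 0. Of 12 regulators of NKG2D ligand transcription 0 were called, 7 were lower and 5 higher, with a median of -0.09. The factor SP1 had WT levels of 214 and 193 CPM and KO levels of 156 and 146 CPM (log2 fold change -0.43, SE 0.22). The checkpoint kinase CHEK2 had a log2 fold change of -0.44 (SE 0.26), the microRNA processor DICER1 of 0.52 (SE 0.31) and the DNA damage kinase ATR of 0.47 (SE 0.42). ATF4, known to raise ULBP1 transcription, reached 323 CPM in WT replicate 1 and 238 to 272 CPM elsewhere. The lowest ATF4 library was WT replicate 2, and the part of ATF4 in the level of ULBP1 was not tested. Without WT replicate 1 MYC had a log2 fold change of 0.46 (SE 0.15), in a fit with a lone WT library.

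The enzymes that shed MIC and ULBP proteins from the surface had a median log2 fold change of -0.28 with all 4 libraries. Of 6 tested 0 were called, in the fit that called no gene. The metalloprotease ADAM10 ranged from 117 to 138 CPM. Its relative ADAM17 ranged from 41.4 to 56.4 CPM and had a log2 fold change of -0.28 (SE 0.24). MMP2 reached 161 CPM in WT replicate 1 against 34.8 CPM in WT replicate 2 and 48.8 and 52.6 CPM in KO. Without WT replicate 1 the log2 fold change of MMP2 was 0.54 (SE 0.18), in a fit with a lone WT library. MMP9 was low, at 0.367 to 1.15 CPM (7 to 34 counts), with a log2 fold change of -0.90 (SE 0.65). The disulfide isomerase PDIA6 had a log2 fold change of -0.28 (SE 0.24).

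Of 15 genes induced by low oxygen 14 were highest in WT replicate 1, the same library as HLA-B, HLA-C, B2M, ULBP1 and ULBP2. All 15 were lower in KO with all 4 libraries (0 called, median -1.27), 12 were over 2-fold above the other libraries in WT replicate 1, and their summed level was 13110 CPM there against 4007 to 4660.0 CPM elsewhere. CA9, a carbonic anhydrase, reached 707 CPM there and 44.9 to 70.7 CPM in the other libraries. Without WT replicate 1, 10 of the 15 were higher in KO, with a median of 0.10. In that fit CA9 rose by 0.51 (SE 0.17, edgeR adjusted p = 0.0496) and ERO1A, an oxidase of the endoplasmic reticulum, by 0.53 (SE 0.16, adjusted p = 0.0212), and neither passed in DESeq2. The glycolytic enzyme PGK1 had WT levels of 3440 and 1286 CPM and KO levels of 854 and 833 CPM, and fell by 0.61 (SE 0.13, edgeR adjusted p = 0.000281), which passed in DESeq2 too (adjusted p = 9.79e-06). Their part in the levels of those 5 members was not tested.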

How the data were processed

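The authors deposited an estimated count and a length-scaled value per gene for each of the 4 libraries. HISAT2, Cufflinks and RSEM and the mouse build GRCm38.p5 appear, per the submitters' processing notes, without versions or roles. The annotation, strand setting and any filters were not given in the sources used here. Between 18.8% and 23.7% of the deposited estimated counts lie within 0.005 of a whole number. FPKM is the reading given here to the length-scaled value that the authors deposited, since its totals (441772 to 452971) differ between libraries, which those of TPM would not.

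Estimated counts were rounded, filtered with filterByExpr, scaled by TMM and compared in edgeR 4.0.16 (R 4.3.3) by its robust quasi-likelihood test on genotype alone. A gene was called at a Benjamini-Hochberg adjusted p under 0.05, taken over all genes. An edgeR SE is the size of the log2 fold change over the root of its F statistic. CPM uses TMM-scaled totals, which come from 18613533 to 30505281 counts per library. The fits were also run on simulated counts with a common dispersion and no library standing apart. Those differ from the data here, so they do not measure how the fits perform on these libraries. Alternatives were other scalings and filters, unrounded counts, DESeq2 1.42.0, limma 3.58.1 (voom, and trend on log2(FPKM + 1) or log2(FPKM + 0.1) with or without a minimum mean of 1), each library left out, and a replicate block. DESeq2 without WT replicate 1 and a crossed block were added after seeing the data.

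The members and the 15 gene lists (180 entries, 168 in the table) were chosen with earlier results of these data known. The text names the members, STK26, up to 4 genes of each list by smallest p, and for members with a 2-fold range the 3 genes nearest in pattern. Other genes (among them TAP2, NLRC5, ATF4, ADAM10, MR1 and CD8A) were chosen after their values were seen. A few genes are not reported here and were left out of the lists. No set test was run.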

Additional observations from a re-analysis of the deposited data

How the results depend on the processing

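No member passed under 15 of 17 alternatives, the exceptions being the edgeR fits without WT replicate 1 and without WT replicate 2. The count of members called was 0 to 5 when each library was left out (3 without WT replicate 1, 5 without WT replicate 2), and that of all genes was 0 to 8702. All genes called numbered 39 in DESeq2, 10 with the replicate block, 4 with a crossed replicate block, and 364 in DESeq2 without WT replicate 1. Leaving out each library gave log2 fold changes of -0.61 to 0.0066 for MICB, -2.06 to -0.46 for ULBP1, -0.71 to -0.16 for ULBP2, -1.06 to 0.0044 for ULBP3, -0.026 to 0.18 for CD58, -0.92 to -0.18 for B2M, -1.91 to -0.56 for HLA-B and -1.81 to 0.15 for HLA-C. CD58 turned to -0.026 without WT replicate 1 and to -0.024 without KO replicate 1, and DESeq2 without WT replicate 1 gave -0.028 for CD58 and 0.15 for HLA-C. The cause was not tested. Of the alternatives run for single members, 137 kept the direction and the side of the threshold, 8 passed it and 7 changed sign. Same-numbered libraries deviated in opposite directions (correlation across genes -0.26). The WT difference was much the wider (SD 0.82 against 0.23 in KO), so this cannot decide whether same-numbered libraries were paired. The replicate block changed no call of a member. ULBP1 had no value under the filter of 5 CPM in 2 libraries. Of the 8 NKG2D ligand genes RAET1L had the fewest counts in each library (32.9 to 85.5), and ULBP1 had 58.0 to 403.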

Other observations

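Other surface genes read by lymphocytes were measured beside the members. Of 19 tested ligands of NK and T cell receptors, 0 were called with all 4 libraries, 10 were lower and 9 higher in KO, and the median log2 fold change was -0.04. CLEC2B, the ligand of the NK receptor NKp80, also had both KO values below both WT values, with WT levels of 48.8 and 17.7 CPM and KO levels of 14.0 and 13.9 CPM (log2 fold change -1.25, SE 0.51). The checkpoint ligand CD274 (PD-L1) had WT levels of 1.26 and 0.756 CPM and KO levels of 0.351 and 0.418 CPM, and LGALS9 was at 2.08 CPM in WT replicate 1 and 0.46 to 0.58 CPM elsewhere. NCR3LG1, the B7-H6 ligand of NKp30, was lowest in WT replicate 1, at 56.0 CPM against 91.5 to 123 CPM elsewhere. PVR, read by DNAM-1 and TIGIT, lay between 80.2 and 108 CPM. CD70, the ligand of CD27, had WT levels of 62.5 and 69.4 CPM and KO levels of 43.7 and 51.7 CPM. Its log2 fold change without WT replicate 1 was -0.54 (SE 0.17), in a fit with a lone WT library.

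The genes whose values over the 4 libraries lay nearest to those of the members with a 2-fold range were found among 11548 genes, by the root mean square (RMS) difference of centred log2(CPM + 1). For ULBP1 they were SNAI1, CRISPLD2 and TMEM189-UBE2V1 (RMS 0.0224, 0.0256 and 0.0349), and 122 genes lay within 0.15. SNAI1 had WT levels of 25.1 and 8.62 CPM and KO levels of 6.33 and 6.65 CPM. For ULBP3 they were ACTR3, MBNL1 and GPLD1, with 59 genes within 0.15, and ACTR3 had WT levels of 183 and 360.4 CPM and KO levels of 201 and 181 CPM. For HLA-B they were FOLR1, MAP1B and GFPT2 (74 genes within 0.15), for HLA-C AGRN, BCL3 and CDT1 (38 genes), and for B2M DMD and RSBN1 (521 genes). With 4 libraries many genes share any such pattern, and these counts describe how many.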
